A study of Mus musculus with 6 samples.

Results

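The genes described here are 6 genes of megakaryocytes and platelets: Pf4, Ppbp, Itga2b, Gp1ba, Gfi1b and Nfe2. They were chosen by name, as genes that mark the megakaryocyte lineage. A probe set counted for a gene when the platform annotation gave it that symbol alone, and 5 of the 6 genes had such a probe set, 1 each. Gp1ba had none and was not analysed here. The 5 measured genes passed the filter for testing and are part of 10302 genes tested.

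Expression was measured on 6 Affymetrix arrays of mouse cells, 3 labelled Gata3+/- (1 disrupted copy of Gata3) and 3 labelled Gata3-/- (both copies disrupted). All cells came from embryonic stem cells (ESCs) grown into blood cells over a feeder layer of OP9 or OP9-DL1, stromal lines from mouse bone marrow (OP9-DL1 displays the Notch ligand DL1), with IL-7 and Flt3L present in both groups. Sorted cells, described in the labels as T-cell progenitors, were the source of the RNA, and neither the sort markers nor the number of stem cell clones is given in the sources used here. The titles call the replicates biological, but nothing says that they came from separate cultures, so a p-value here reflects no more than how far these arrays scatter, which may be technical. No wild-type cells were analysed here, so the heterozygous cells are the control.

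Megakaryocytes are the large cells of bone marrow and fetal liver that shed platelets. They arise from progenitors shared with the red cell lineage under the transcription factors GATA1, FOG1 (gene Zfpm1), RUNX1, FLI1, TAL1 and GFI1B, and they mature under thrombopoietin, which signals through the kinase JAK2 and STAT transcription factors. NF-E2, whose p45 subunit is encoded by Nfe2, is needed late, for platelet release. Platelets carry the fibrinogen receptor, an integrin of the chains Itga2b and Itgb3, and the von Willebrand factor receptor, a complex of Gp1ba, Gp1bb, Gp5 and Gp9. Their alpha granules hold the chemokines encoded by Pf4 and Ppbp. Several of these genes are not limited to the lineage: Itga2b is also present on early blood progenitors, and Pf4 has been seen in some macrophages.

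GATA3 belongs to the same family of DNA-binding proteins as GATA1 and GATA2. The stretches just upstream of the start sites of the 4 measured genes with a promoter entry are therefore shown, with the letters GATAA or TTATC (the core that GATA factors recognise, on either strand), GGAAG or CTTCC (the core of sites for ETS factors such as FLI1) and TATAAA or TTTATA (the TATA box) in capitals. Each is the 250 bases before the RefSeq start, assembly GRCm38.p6, read along the gene's strand. They lie at chr5:90772185-90772434 (plus strand), chr5:90768268-90768517 (plus strand), chr11:102469884-102470133 (minus strand) and chr2:28621983-28622232 (minus strand).
Pf4: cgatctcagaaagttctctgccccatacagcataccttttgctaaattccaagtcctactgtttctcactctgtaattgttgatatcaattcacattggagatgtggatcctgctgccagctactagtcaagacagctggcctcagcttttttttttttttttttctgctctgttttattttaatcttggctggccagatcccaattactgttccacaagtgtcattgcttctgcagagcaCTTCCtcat
Ppbp: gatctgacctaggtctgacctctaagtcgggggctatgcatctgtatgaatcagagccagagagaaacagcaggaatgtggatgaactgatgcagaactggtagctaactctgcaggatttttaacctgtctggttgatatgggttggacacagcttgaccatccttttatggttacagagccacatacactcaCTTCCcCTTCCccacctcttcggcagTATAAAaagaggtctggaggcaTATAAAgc
Itga2b: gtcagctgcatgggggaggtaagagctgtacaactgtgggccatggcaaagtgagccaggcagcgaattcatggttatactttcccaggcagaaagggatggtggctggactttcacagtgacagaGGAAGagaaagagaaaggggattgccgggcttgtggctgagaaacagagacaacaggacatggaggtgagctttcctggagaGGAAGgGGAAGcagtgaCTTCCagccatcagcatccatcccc
Gfi1b: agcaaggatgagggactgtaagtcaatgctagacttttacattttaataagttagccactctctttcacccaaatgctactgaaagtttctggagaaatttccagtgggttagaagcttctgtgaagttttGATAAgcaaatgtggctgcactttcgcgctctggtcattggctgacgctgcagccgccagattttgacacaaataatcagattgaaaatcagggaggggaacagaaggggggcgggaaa
The GATA letters were present 1 time upstream of Gfi1b, and 0 times in the windows of Pf4, Ppbp and Itga2b. Of all 32851 windows of this length in the table, 22.6% held them. The ETS letters were present 4 times for Itga2b, 2 times for Ppbp, 1 time for Pf4 and 0 times for Gfi1b, and 64.1% of all windows held them. Ppbp had 2 TATA matches, against 12.4% of all windows with any. The letters TGAGTCA or TGACTCA, the core of NF-E2 and AP-1 sites, were in none of the 4 windows and in 4.46% of all. No motif overlapped another in these windows. The window of Gp1ba, whose expression was not analysed here, held 2 GATA and 2 ETS matches.

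The megakaryocyte genes stood far above the array's floor in cells of both genotypes, whereas most genes of the labelled T lineage did not. Levels are log2 GC-RMA intensities, where a value of 4 on at least 3 arrays was the minimum for testing and differences are Gata3-/- minus Gata3+/-. Of 20 T-lineage genes on the array, 16 never reached that minimum on any array. Cd3e, part of the CD3 complex of T cells, was at the floor, with 2.42 ± 0.01 for Gata3+/- and 2.45 ± 0.04 for Gata3-/- (SD, n = 3 each). Of the 4 tested, the surface antigens Cd5 and Cd7 had the smallest p, at 1.44 for Cd5 (adjusted p = 0.0764) and 1.16 for Cd7 (adjusted p = 0.118) in log2 difference. Of the 4, 3 were positive, Gata3 itself among them, and 1 negative. The negative one was Lat, with a difference of -0.85 (adjusted p = 0.157 with limma), which is also on the megakaryocyte list of cytoskeleton and signalling. The groups did not overlap for 1 that was lower, Lat (25%, against 16.7% of all genes tested). They did not overlap either for 2 that were higher (50%, against 16.9%). Levels of different probe sets cannot be set against each other, so the 5 genes are compared only between arrays. The probe set of Gata3 itself did not differ detectably (difference 0.05, 95% interval -0.80 to 0.89), and it does not check the genotypes, since the sources used here do not say which exons were lost.

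None of the 5 genes was called between the genotypes at an adjusted p under 0.05 with limma, against 5.27% of all genes tested. At an unadjusted p under 0.05 the count was also 0 of 5, against 25.8% of all genes tested. The values of the 2 genotypes overlapped for each of the 5, while 33.6% of all genes tested had groups that did not overlap. All 5 differences were negative, from -0.66 for Ppbp to -0.03 for Gfi1b with a median of -0.11, where the median of all genes tested was -0.02 and 53.3% of them were negative. That shared sign depends on single arrays: 2 of 5 were negative without Gata3-/- replicate 3, where the median was 0.03, 3 without Gata3+/- replicate 1, and 4 without Gata3+/- replicate 2 or without replicate 1 or 2 of Gata3-/-. The RNA came from pooled sorted cells, so fewer cells of a type and less RNA per cell cannot be told apart.

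Pf4 encodes platelet factor 4, a CXC chemokine of the alpha granule. Its probe set read 13.97, 13.60 and 13.76 on Gata3+/- replicates 1, 2 and 3, and 13.99, 13.13 and 13.35 on Gata3-/- replicates 1, 2 and 3. Gata3-/- replicate 1 was the highest of the 6 arrays, and the other 2 Gata3-/- arrays were the lowest. The difference was -0.28 (SE 0.24, 95% interval -0.88 to 0.31, adjusted p = 0.543 with limma, two-sided exact permutation p = 0.4; with 3 arrays against 3 it cannot go below 0.1).

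Ppbp, the gene of pro-platelet basic protein, the precursor of a neutrophil-attracting chemokine, lies next to Pf4 on chromosome 5. It read 11.57, 11.57 and 11.12 in Gata3+/- and 11.38, 10.37 and 10.52 in Gata3-/- cells. Again replicates 2 and 3 of Gata3-/- were below every other array, and replicate 1 lay inside the range of the heterozygous arrays. Its difference of -0.66 was the farthest from 0 among the 5 genes, 1.58-fold higher in Gata3+/- with a 95% interval from 0.952 to 2.63, and did not pass (SE 0.30, adjusted p = 0.253 with limma, exact permutation p = 0.2).

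Itga2b encodes the integrin chain CD41, an early mark of both megakaryocytes and embryonic blood progenitors. It read 10.68, 10.11 and 10.44 in Gata3+/- and 10.90, 9.98 and 10.11 in Gata3-/- cells. The highest and the lowest array were both Gata3-/-. The difference was -0.08 (SE 0.28, 95% interval -0.78 to 0.62, adjusted p = 0.897 with limma, exact permutation p = 0.8). Itga2b lies on chromosome 11, whose 886 tested genes had a median difference of 0.33, with 10.6% of them called higher. Of those genes, 7.90% had a difference below that of Itga2b, and relative to the chromosome's median its difference was -0.41.

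Gfi1b, a zinc finger repressor needed for both megakaryocytes and red cells, read 8.35, 8.55 and 7.95 in Gata3+/- and 8.14, 8.89 and 7.74 in Gata3-/- cells. Here Gata3-/- replicate 2, which was the lowest array for Pf4, Ppbp and Itga2b, was the highest. The group means of 8.28 ± 0.30 and 8.26 ± 0.59 (SD, n = 3 each) differed by -0.03 (SE 0.32, 95% interval -0.83 to 0.77, adjusted p = 0.973 with limma).

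Nfe2 read 10.36, 10.25 and 10.02 in Gata3+/- and 10.01, 10.51 and 9.79 in Gata3-/- cells. Gata3-/- replicate 2 was again the highest array and Gata3-/- replicate 3 the lowest, as for Gfi1b. The difference was -0.11 (SE 0.21, 95% interval -0.62 to 0.40, adjusted p = 0.800 with limma).

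**Figure D1:**
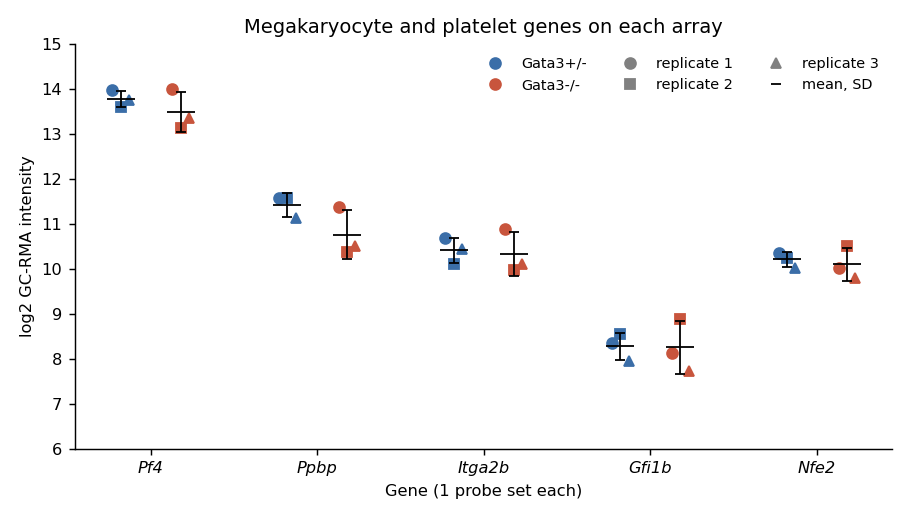
The log2 GC-RMA intensity of the 5 measured genes (vertical axis) is shown for each of the 6 arrays, blue for Gata3+/- and red for Gata3-/-, with the shape giving the replicate number and bars the mean and SD of 3 arrays. The genotypes overlap for every gene; the lowest red point is replicate 2 (square) for Pf4, Ppbp and Itga2b and replicate 3 (triangle) for Gfi1b and Nfe2.

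The 5 genes did not share a single profile over the arrays. Likeness was measured as the root mean square distance between profiles after each gene was centred on its own mean over the 6 arrays, in log2 units, and is a description of these arrays. Pf4 and Itga2b lay 0.13 apart, Pf4 and Ppbp 0.27, and Ppbp and Itga2b 0.37, while Gfi1b and Nfe2 lay 0.17 apart. Between the 2 sets, Gfi1b lay 0.57 from Pf4, 0.58 from Itga2b and 0.62 from Ppbp, and Nfe2 lay 0.43, 0.45 and 0.52 from them. The smallest distance between the sets was 0.43 and the largest within one was 0.37. The sets come from these same distances, so the gap is no test of them. The median distance of all genes tested was 0.50 from Ppbp and 0.41 from Gfi1b. The chemokine and integrin genes shared a low on Gata3-/- replicate 2, where the genes of the 2 transcription factors had their high.

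**Figure D2:**
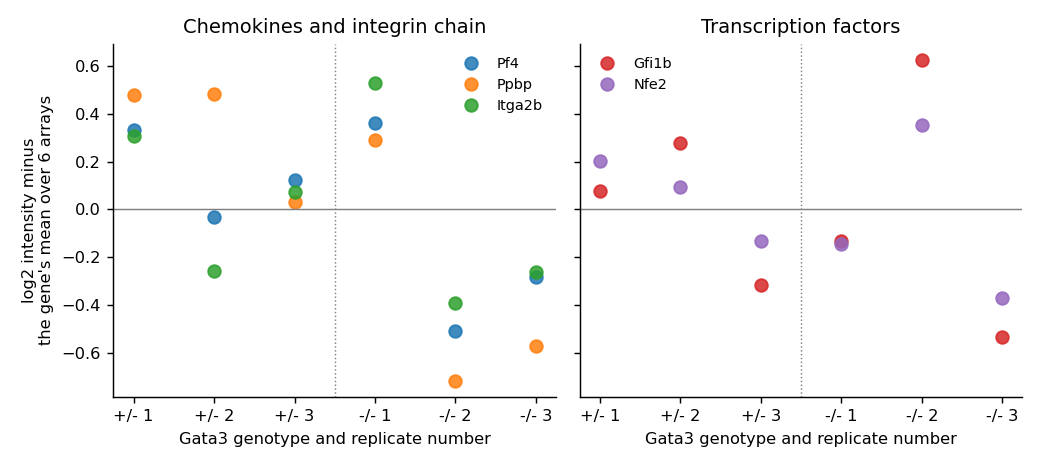
Each point is a gene's log2 intensity minus its own mean over the 6 arrays, for Pf4, Ppbp and Itga2b (left) and for Gfi1b and Nfe2 (right), by genotype and replicate number. On Gata3-/- replicate 2 the 3 genes on the left are at their lowest and the 2 on the right at their highest.

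The spread within Gata3-/- exceeded that within Gata3+/- for each of the 5 genes. The median distance from lowest to highest array was 0.92 in Gata3-/- and 0.45 in Gata3+/-. Over all genes tested these medians were 0.27 and 0.25, and 53.3% of genes had the larger spread in Gata3-/-. No test was made of this difference in spread. It held for 2 of the 5 without Gata3-/- replicate 1 (36.4% of all genes tested) and for 3 without Gata3-/- replicate 2 (26.2%). Without Gata3-/- replicate 3 it held for 5 (36.1%). These counts set 2 Gata3-/- arrays against 3 Gata3+/- arrays, which by itself makes a larger spread in Gata3-/- less frequent. Without both arrays numbered 2 it held for 4 (48.6% of all genes tested).

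Ppbp and Gfi1b spanned at least 1 log2 unit over the 6 arrays, and the genes nearest to them in profile were sought among all genes tested. For Ppbp these were Zfhx3, a homeobox transcription factor, at a distance of 0.12, Mmrn1, which encodes multimerin, a protein of platelet alpha granules and endothelium, at 0.12, and Mrvi1, a target of cGMP-dependent kinase in smooth muscle and platelets, at 0.14. The median distance of all genes from Ppbp was 0.50. For Gfi1b they were Mtfp1, a mitochondrial fission protein, at 0.04, Cd55, a regulator of complement, at 0.10, and AW011738 at 0.11, with a median over all genes of 0.41. None of these 6 genes was called, with differences from -0.65 for Mmrn1 and for Zfhx3 to 0.09 for AW011738.

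Pf4 and Ppbp lie in a run of CXC chemokine genes on chromosome 5, in the order Cxcl5, Ppbp, Pf4, Cxcl3, Cxcl15, Cxcl1 and Cxcl2. The genes on either side of the platelet pair had differences of opposite sign. Cxcl5, a neutrophil attractant, had a difference of -0.68 (adjusted p = 0.421), on the side of Ppbp and Pf4. Cxcl1, another neutrophil attractant, read 9.32, 5.85 and 8.83 in Gata3+/- and 10.61, 9.44 and 10.99 in Gata3-/- cells, without overlap, a difference of 2.35 that did not pass (adjusted p = 0.229 with limma). Cxcl3 had a difference of 2.11 (adjusted p = 0.200), and Cxcl2 one of 2.56 (adjusted p = 0.205) with 2 of 3 Gata3+/- arrays at or above the minimum. Cxcl15 was below it on all arrays.

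Of 13 CXC chemokine genes other than Pf4 and Ppbp, 7 passed the filter and 0 were called with limma, although 2, Cxcl3 and Cxcl2, had an unadjusted p under 0.05 (28.6%, against 25.8% of all genes tested). The median difference of the 7 was 1.70, with 5 positive. Cxcl1 and Cxcl2 were the 2 whose genotypes did not overlap, both higher, where 16.9% of all genes tested lay higher without overlap. Gata3+/- replicate 2 was the lowest array for Cxcl1, Cxcl2 and Cxcl3.

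**Figure D3:**
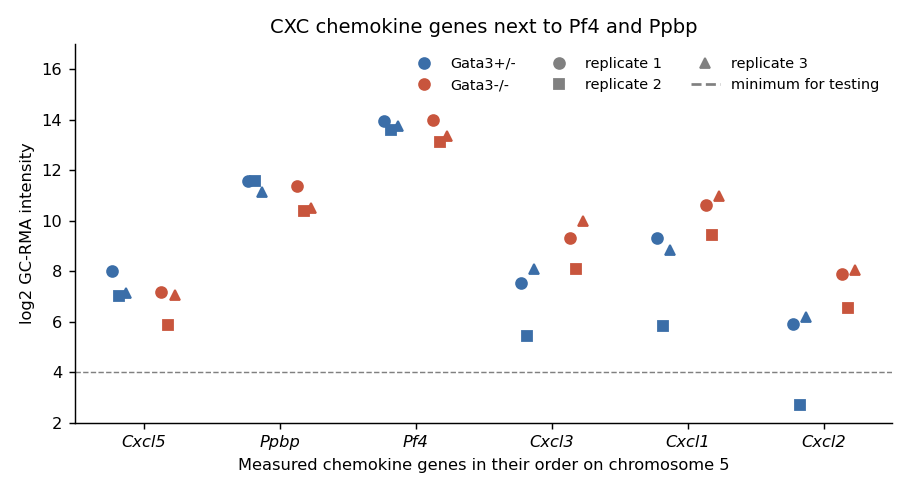
The log2 GC-RMA intensity of the 6 measured chemokine genes around Pf4 and Ppbp is plotted for each array in the order of the genes along chromosome 5, blue for Gata3+/- and red for Gata3-/-, with the minimum for testing dashed at 4. Cxcl1 and Cxcl2 have every red point above every blue one, while Cxcl5, Ppbp, Pf4 and Cxcl3 overlap.

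The genes that work beside the 6 were taken from 4 lists of megakaryocyte genes: surface receptors, granule proteins, cytoskeleton and signalling, and transcription factors. Together they hold 103 genes, of which 94 were on the array and 86 were tested. With limma 5 were called, all lower in Gata3-/-, which is 5.81% against 5.27% of all genes tested in either direction. These 5 calls and those of 4 thrombopoietin pathway genes were all lost without a filter, and in each of the 6 fits that left out 1 array. The groups did not overlap for 15 that were lower (17.4%, against 16.7% of all genes tested) and for 5 that were higher (5.81%, against 16.9%). The median difference was -0.16, and 60 of the 86 were negative (69.8%, against 53.3%).

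Among surface receptors, 19 of 20 tested genes had a negative difference (95%, against 53.3% of all genes tested), and 1 was called, lower (2.41% of all genes tested were called lower). The list's median was -0.44. In the macrophage list 15 of 17 were negative too (88.2%, median -0.48), as were 15 of 17 in the OP9 stroma list (88.2%, median -0.61), and their part in the values of the receptors was not tested. Without Gata3-/- replicate 2 the OP9 stroma list had 7 of 17 negative and a median of 0.04. Of the 20 surface receptor genes, 16 to 19 were negative with any 1 array left out, and 19 without both arrays numbered 2. The called gene was Clec1b, which encodes CLEC-2, the platelet receptor for podoplanin that is also found on some myeloid cells. It read 12.22, 11.95 and 11.72 in Gata3+/- and 11.14, 10.58 and 10.96 in Gata3-/- cells. The groups were apart, and Clec1b fell by 1.07 (SE 0.19, adjusted p = 0.0462 with limma).

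The partner of Itga2b, Itgb3, measured 9.60 ± 0.51 in Gata3+/- and 9.37 ± 0.78 in Gata3-/- (SD, n = 3 each; adjusted p = 0.803), and its second probe set had a difference of -0.34. In the von Willebrand factor receptor, where Gp1ba was not analysed here, Gp1bb had a difference of -0.74 (SE 0.23, adjusted p = 0.136), Gp5 of -0.46 (adjusted p = 0.292) and Gp9 of -0.10 (adjusted p = 0.878). Gp1bb read 10.62, 10.24 and 10.17 in Gata3+/- and 10.07, 9.40 and 9.35 in Gata3-/- cells, without overlap. Gp5 and Gp9 overlapped, and whether the 3 subunits differed from each other in their response was not tested.

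P2ry12, the platelet ADP receptor that is also a gene of microglia, had a difference of -0.82 (adjusted p = 0.0812), and the laminin receptor chain Itga6 of -1.11 (adjusted p = 0.128). Cd9, a tetraspanin of platelets and many other cells, had a difference of -0.42 (adjusted p = 0.448). Pecam1, an adhesion molecule of platelets and endothelium on chromosome 11, was the gene with a positive difference, 0.59 (adjusted p = 0.112). The collagen receptor gene Gp6 reached the minimum on Gata3-/- replicate 1 only, at 4.38, and Selp, the gene of P-selectin, on no array.

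Of 18 tested genes of granule proteins 1 was called, lower (5.56%, against 2.41% of all genes called lower). The list's median was -0.12, or 0.02 without Gata3-/- replicate 2. Gas6, a ligand of the TAM receptors that is stored in granules and also made by macrophages and stroma, fell from 9.95 ± 0.05 to 8.41 ± 0.50 (SD, n = 3 each; difference -1.54, SE 0.25, adjusted p = 0.0383 with limma). Vwf, von Willebrand factor, stood at 8.29 ± 0.06 in Gata3+/- arrays and read 8.96, 6.67 and 7.32 on Gata3-/- replicates 1, 2 and 3. As for Pf4, the highest array and the 2 lowest were Gata3-/-, and Vwf had a difference of -0.64 (adjusted p = 0.564). F13a1, coagulation factor XIII, had a difference of -1.74 (adjusted p = 0.161), and thrombospondin, Thbs1, of -0.31 (adjusted p = 0.720). Srgn, the granule proteoglycan serglycin, had a difference of 0.39 (adjusted p = 0.0574).

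Of 26 tested genes of cytoskeleton and signalling 1 was called, lower (3.85%, against 2.41% of all genes called lower), with a list median of -0.12. Tbxas1, thromboxane synthase of platelets and macrophages, fell from 8.19 ± 0.04 to 7.45 ± 0.17 (SD, n = 3 each; difference -0.74, SE 0.10, adjusted p = 0.0344 with limma). Tubb1, the tubulin of the platelet's marginal band, read 11.80, 11.17 and 11.38 in Gata3+/- and 11.76, 10.08 and 10.63 in Gata3-/- cells (difference -0.63, adjusted p = 0.461). Its order of arrays in Gata3-/- was that of Pf4. Plek, pleckstrin of platelets and leukocytes, had a difference of 0.02 (adjusted p = 0.951), and Rgs18, a brake on platelet receptor signalling, of -0.41 (adjusted p = 0.0917). A second probe set of Rgs18 passed, with a difference of -0.52 (adjusted p = 0.04065 with limma). The list counts use only the probe set with the highest mean.

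Of 23 tested transcription factors 2 were called, both lower (8.7%, against 2.41% of all genes called lower), and the list's median was -0.07. Fli1, the ETS factor of megakaryocyte and endothelial genes, read 11.76, 11.93 and 11.63 in Gata3+/- and 11.05, 11.07 and 11.24 in Gata3-/- cells. It fell by 0.65 (SE 0.11, adjusted p = 0.0385 with limma), and a second probe set fell by 1.12 (adjusted p = 0.0349). Srf, serum response factor, fell from 9.03 ± 0.09 to 8.42 ± 0.09 (SD, n = 3 each; difference -0.61, SE 0.09, adjusted p = 0.0344 with limma), but its second probe set had a difference of 0.09 (adjusted p = 0.683).

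The GATA factors of the lineage and their partners did not pass. Gata1 had a difference of -0.07 (95% interval -0.65 to 0.50), Zfpm1 of -0.21 (adjusted p = 0.687), Gata2 of 0.50 (adjusted p = 0.384), Runx1 of -0.22 (adjusted p = 0.379) and Tal1 of -0.24 (adjusted p = 0.512). The small Maf genes Mafg and Mafk, whose proteins pair with the p45 subunit of NF-E2, differed by 0.32 and 0.18, with adjusted p = 0.302 and adjusted p = 0.334. Gata1 was highest on Gata3-/- replicate 2, at 9.37 against 8.73 and 8.53 on replicates 1 and 3, the same order of arrays as for Gfi1b and Nfe2.

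The thrombopoietin pathway list gave the opposite direction. Of its 13 tested genes 4 were called, all higher (30.8%, against 2.86% of all genes called higher), with a median of 0.38. Jak2, a kinase that cytokine receptors use, rose from 10.46 ± 0.11 to 11.26 ± 0.19 (SD, n = 3 each; difference 0.80, SE 0.12, adjusted p = 0.0359 with limma), and its second probe set rose by 0.89 (adjusted p = 0.0306). Stat5a, a STAT factor activated by JAK2, rose by 1.04 (adjusted p = 0.0334), Grb2, an adaptor of receptor signalling, by 0.55 (adjusted p = 0.0420), and Tyk2, a kinase related to JAK2, by 0.67 (adjusted p = 0.0477). The second probe sets of Grb2 and Tyk2 did not pass, with differences of 0.28 and 0.06. Stat5a and Grb2 lie on chromosome 11, with 5 of the 13 genes. Of all genes tested on that chromosome, 10.6% were called higher, with a median difference of 0.33. The part of the chromosome in the list's values was not tested. The kinases and adaptors of the list serve many cytokine receptors.

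**Figure D4:**
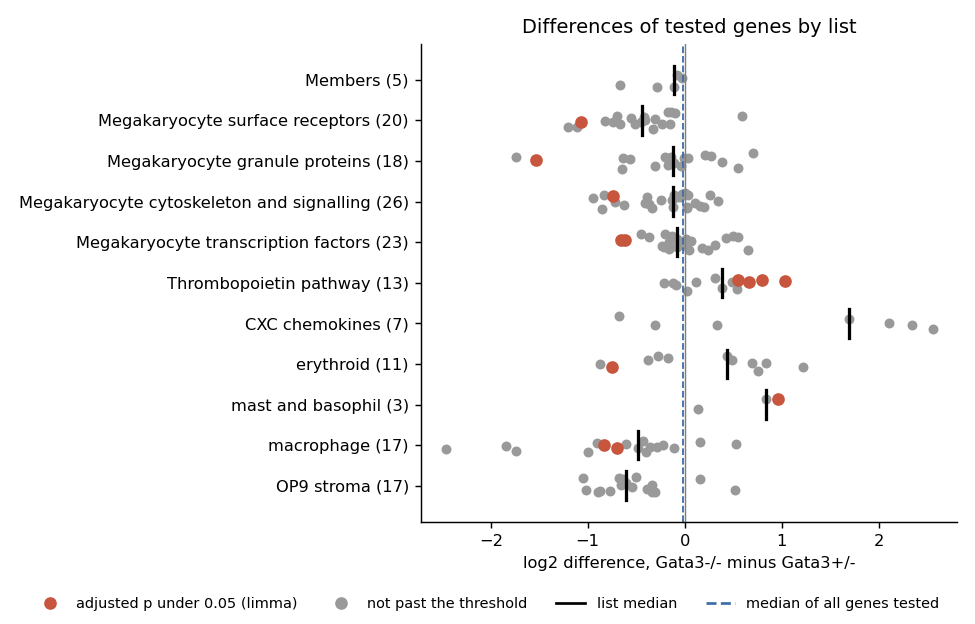
The log2 difference, Gata3-/- minus Gata3+/-, of each tested gene is plotted by list, with the number tested in brackets, genes past an adjusted p of 0.05 in red, list medians as black bars and the median of all genes tested dashed. The 5 members and 19 of 20 surface receptor genes lie below 0, and the called genes of the 4 megakaryocyte lists are all lower while those of the thrombopoietin list are all higher.

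Genes of other cell types differed between the arrays too. Gata3-/- replicate 2 was the lowest of the 6 arrays for 12 of 20 surface receptor genes (60%), 9 of 18 granule genes (50%) and 11 of 26 cytoskeleton genes (42.3%), against 17.9% of all genes tested. It was the highest for 7 of 23 transcription factor genes (30.4%, against 21.1%). It was the lowest for 11 of 17 macrophage genes and for 11 of 17 genes of OP9 stroma. It was the highest for 5 of 11 erythroid genes, for 3 of 3 tested mast cell and basophil genes and for 3 of 4 tested T-lineage genes.

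Of 19 macrophage genes on the array 17 were tested, 15 were negative and 2 were called, both lower (11.8%, against 2.41% of all genes called lower). These were Cx3cr1, the fractalkine receptor, by 0.83 (adjusted p = 0.0323 with limma) and Fcgr1, an IgG receptor, by 0.70 (adjusted p = 0.0431). The second probe set of Cx3cr1 did not pass (difference -1.09, adjusted p = 0.108 with limma), while that of Fcgr1 did (-0.93, adjusted p = 0.0369). The groups did not overlap for 13 of the 17 that were lower (76.5%, against 16.7% of all genes tested) and for 1 that was higher (5.88%, against 16.9%). The summed intensity of the 17 ran from 163273 to 184588 in Gata3+/- and from 116114 to 133807 in Gata3-/- arrays, without overlap. Timd4 and Cd163 were below the minimum on all arrays. The macrophage receptor gene Csf1r measured 14.55 ± 0.05 in Gata3+/- and 14.33 ± 0.08 in Gata3-/- (SD, n = 3 each; adjusted p = 0.165), Mrc1 had a difference of -1.84 (adjusted p = 0.118), and C1qa of -0.28 (adjusted p = 0.676). Further probe sets of Csf1r had differences of -0.49 (adjusted p = 0.0949 with limma) and -0.58 (adjusted p = 0.0739 with limma). F13a1 is on this list as well as among the granule genes. The part of the macrophage genes in the differences of Clec1b, Gas6, Tbxas1 and Fli1 was not tested.

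Of 16 erythroid genes on the array 11 were tested and 1 was called, lower (9.09%, against 2.41% of all genes called lower). Hemgn, a nuclear factor of blood progenitors and red cell precursors, fell by 0.75 (adjusted p = 0.0373 with limma). Of the 11, 6 had a positive difference, and the list's median was 0.44. Their summed intensity ran from 24293 to 48124 in Gata3+/- and from 12655 to 37482 in Gata3-/- arrays, while their mean log2 level ran from 7.97 to 8.45 and from 8.38 to 8.55. Slc4a1, the red cell anion exchanger, had a difference of 1.22 (adjusted p = 0.260) and Klf1, a factor of red cell precursors, of 0.83 (adjusted p = 0.406). The second probe set of Slc4a1 had a difference of 0.64 (adjusted p = 0.410 with limma). The list's most negative difference was -0.87, for the globin gene Hbb-bh1 (adjusted p = 0.337 with limma), with means of 14.21 in Gata3+/- and 13.34 in Gata3-/-. The embryonic globin gene Hbb-y had a difference of -0.27 (adjusted p = 0.823), and the adult globin gene Hba-a1 was below the minimum on all arrays. Klf1 read 8.54, 10.04 and 8.21 on Gata3-/- replicates 1, 2 and 3, highest where Gfi1b and Nfe2 were highest.

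Of 11 mast cell and basophil genes on the array 3 were tested, and the defining genes Fcer1a and Mcpt8 were below the minimum on all arrays. Mcpt4 and Mcpt2 reached it on Gata3-/- replicate 2 alone, at 4.26 and 4.91, and Cpa3, a mast cell protease, read 9.99 there against 6.83 on replicate 1, with a difference between genotypes of 0.14 (adjusted p = 0.949). The summed intensity of the 3 tested genes ran from 1180 to 1964 in Gata3+/- and from 2325 to 4019 in Gata3-/- arrays, while their mean log2 level overlapped, from 7.26 to 8.37 and from 7.73 to 9.63. Kit, which is on this list and on that of progenitors, rose by 0.96, from a mean of 10.26 to 11.22 (adjusted p = 0.0477 with limma). Its second probe set had a difference of 0.87 and did not pass (adjusted p = 0.147 with limma). A sum of linear intensities weighs the brightest probe sets most, so Kit makes up a large part of the sums of the 3 genes. Of 13 progenitor genes on the array 10 were tested, 8 of them positive with a median of 0.46, and Gata3-/- replicate 2 was the highest array for 5. Beside Kit, which rose, the surface antigen Cd34 fell by 0.88 (adjusted p = 0.0479). The calls of Cx3cr1, Fcgr1, Hemgn, Kit and Cd34 were lost without a filter and with any 1 array left out.

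Of 19 genes of OP9 stroma on the array 17 were tested, and their summed intensity ran from 7192 to 22935 in Gata3+/- and from 5532 to 21094 in Gata3-/- arrays. The lowest array of each genotype was replicate 2, and the collagen gene Col1a1 had a difference of -0.63 (adjusted p = 0.766). None of the 17 was called with limma, and the 2 with the smallest p, the matrix gene Postn and the protease inhibitor gene Timp3, both at an unadjusted p under 0.05, differed by -0.77 (Postn, adjusted p = 0.138) and by -1.05 (Timp3, adjusted p = 0.197). The part of erythroid, mast cell and stromal genes in the profiles of the 5 genes was not tested.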

How the data were processed

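The members and gene lists were chosen with earlier results of these data known. The deposited values are linear GC-RMA intensities for 45101 probe sets, made by the authors per the labels (background corrected from probe sequence, arrays normalized together); GCOS is named in the submitters' processing notes, whose version and settings, like those of GC-RMA, are not stated there. Low values form a floor, and the number of arrays limits the precision. Their log2 was taken with no further normalization, 64 control probe sets were left out, and 20102 probe sets with a log2 of at least 4 on at least 3 of 6 arrays went into limma (version 3.58.1, R 4.3.3; lmFit, eBayes, two-sided, Benjamini-Hochberg over all probe sets tested, threshold 0.05). The fit was checked on simulated data. A gene was represented by the probe set of 1 symbol with the highest mean over 6 arrays. Of 45101 probe sets, 34958 had 1 symbol, 932 several and 9211 were not listed; 34754 matched a RefSeq gene table of GRCm38.p6 by gene identifier, which gave chromosomes and gene order. Promoter windows are from RefSeq, and 5 of the 6 genes had an entry.

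Genes named are the 6 members, every called gene of each list or else the 2 with the smallest p, a fixed set of lineage regulators and markers, and the 3 genes nearest in profile to each member spanning at least 1 log2 unit; others are examples chosen after their values were seen. Alternatives were no filter, a filter at a log2 of 6, array weights, quantile normalization, eBayes with trend and robust settings, centring on array medians, averaging probe sets, a block for the replicate number, and leaving out each array. Figures used matplotlib 3.10.9 (Python 3.11.15).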

Additional observations from a re-analysis of the deposited data

How the results depend on the processing

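No member was called under any of the 15 alternatives. Over them the difference of Pf4 ran from -0.54 to -0.10 and that of Ppbp from -0.97 to -0.40. Itga2b ran from -0.37 to 0.09, with a positive sign without Gata3+/- replicate 1 (0.05), Gata3-/- replicate 2 (0.092) or Gata3-/- replicate 3 (0.028). Gfi1b ran from -0.35 to 0.23, positive without Gata3+/- replicate 1 (0.01) or 2 (0.11) and without Gata3-/- replicate 1 (0.03) or 3 (0.23). Nfe2 ran from -0.31 to 0.05, positive without Gata3-/- replicate 3 (0.049). The main counts were 878 probe sets and 543 genes. Without a filter they were 166 and 98, under trended robust eBayes 1349 and 824, under array weights 2075 and 1224, and without both arrays numbered 2, chosen after seeing the data, 0 and 0. Leaving out each array in turn, with fewer arrays in each fit, left 0 to 7 probe sets, 0 to 3 genes and 0 genes of any of the 6 lists.

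Of surface receptors (main count 1), granule proteins (1), cytoskeleton and signalling (1), transcription factors (2) and the thrombopoietin pathway (4), 0 each were called without a filter and without both arrays numbered 2. Array weights called 4 surface receptors, 3 granule and 3 cytoskeleton genes. The filter at 6, the variance trend and averaging probe sets each called 2 granule genes, and averaging called 2 cytoskeleton genes and 1 transcription factor. The causes were not tested. All 14 called list genes named kept their sign under the alternatives, which carries little weight since they were chosen on the same arrays, and 14 stayed called under quantile normalization and median centring, but 0 without a filter, without both arrays numbered 2, or in any of the 6 fits that left out an array.

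The replicate block gave 498 called probe sets and 298 called genes, with 5 of the 14, 0 of the 4 megakaryocyte lists, 1 thrombopoietin gene and 1 CXC chemokine, Cxcl3. Same-numbered arrays had deviations from their group means that correlated by 0.005 (number 1), 0.695 (number 2) and 0.429 (number 3). The titles give replicate numbers only, so whether same-numbered arrays were made together is not known. The main fit and its intervals used no pairing. With the block the SE was smaller, at 0.13 for Pf4, 0.22 for Ppbp, 0.14 for Itga2b and 0.15 for Gfi1b and Nfe2. No member was called with it, and the smallest adjusted p was that of Ppbp (0.1645 with limma).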
